A study of Mus musculus with 36 samples.

Results

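The nuclear-encoded subunits of mitochondrial complex I were followed in mouse dendritic cells of 2 kinds, at rest and after stimulation. A gene was taken as a member when its symbol was Nduf, then a letter a, b, c, s or v, then a number. This rule found 36 of the 53299 genes in the expression table, used no measured value, and leaves out the assembly factors (Ndufaf genes), Ndufab1, the table's Ndufb1-ps and the mitochondrially encoded subunits. Ndufa4 carries a complex I name but is now placed in complex IV, and it is given apart where that matters.

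Total RNA came from bone marrow cultures in which FLT3 ligand had induced the conventional dendritic cell kinds cDC1 and cDC2, and cDNA libraries were sequenced. Cells of each kind received nothing (labelled Nothing), the Toll-like receptor ligand LPS, the oxidised phospholipid PGPC, or both (labelled LPS_PGPC), with 3 libraries a group and 2 for cDC2 with PGPC. The series design calls the replicates biological. Strain, genotype, age, doses, exposure times and any sorting of the cells are not stated in the labels.

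Complex I is the entry point of the respiratory chain: it takes electrons from NADH, passes them along iron-sulfur clusters to ubiquinone, and pumps protons across the inner mitochondrial membrane. Its matrix arm holds an NADH-binding and a ubiquinone-binding module, and its membrane arm holds the proton pumps surrounded by many small accessory subunits. In dendritic cells, Toll-like receptor stimulation is known to be followed by increased glycolysis and, under some conditions, by reduced mitochondrial respiration.

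Promoters are shown for called members because nuclear-encoded respiratory genes are known to share binding motifs for NRF1, ETS factors, YY1 and SP1. RefSeq promoter windows of 300 bases (250 before to 50 after the annotated start, build GRCm38.p6) were matched for 32 of the 36 members. The 3 windows below belong to members called in a comparison that held a match to at least 1 searched motif. They run 5′ to 3′ on the gene's strand, and capitals mark the matches, none of which overlaps a match of another motif. Ndufa6 (chr15:82354242-82354541, minus strand) holds an NRF1 and an SP1 match after the start, Ndufs8 (chr19:3912725-3913024, minus strand) an ETS match after the start, and Ndufa10 (chr1:92473709-92474008, minus strand) 2 SP1 matches before it.
Ndufa6: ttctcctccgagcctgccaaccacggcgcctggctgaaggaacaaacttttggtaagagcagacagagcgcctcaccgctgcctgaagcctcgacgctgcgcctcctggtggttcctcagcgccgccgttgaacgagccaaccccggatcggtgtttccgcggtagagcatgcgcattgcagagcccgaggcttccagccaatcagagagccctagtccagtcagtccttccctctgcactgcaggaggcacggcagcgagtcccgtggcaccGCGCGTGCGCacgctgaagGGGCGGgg
Ndufs8: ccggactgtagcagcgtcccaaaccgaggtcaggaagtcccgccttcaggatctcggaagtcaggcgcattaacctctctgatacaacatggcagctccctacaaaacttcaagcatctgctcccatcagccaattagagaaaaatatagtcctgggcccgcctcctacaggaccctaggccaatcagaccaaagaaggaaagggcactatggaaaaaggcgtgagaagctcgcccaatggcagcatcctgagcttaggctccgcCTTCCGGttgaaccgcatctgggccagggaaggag
Ndufa10: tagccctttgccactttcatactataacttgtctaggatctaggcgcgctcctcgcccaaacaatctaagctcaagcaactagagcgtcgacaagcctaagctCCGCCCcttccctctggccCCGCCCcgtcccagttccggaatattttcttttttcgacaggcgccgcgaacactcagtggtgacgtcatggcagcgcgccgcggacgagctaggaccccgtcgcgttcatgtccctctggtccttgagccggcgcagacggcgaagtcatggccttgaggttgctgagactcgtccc

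The windows of Ndufb10 and Ndufb5, the other called members with an entry, held none of the 4 motifs in these letters. Both strands were searched. A gene was counted once if any of its RefSeq windows of this length held a match. The NRF1 motif, a pair of half-sites, was found in 7 of the 32 matched members (21.9%), against 5.19% of 27025 genes. The YY1 core AAGATGGC was also in 7 (21.9%, against 3.19%), the ETS core CCGGAAG in 4 (12.5%, against 9.93%) and the SP1 box GGGCGG in 14 (43.8%, against 38.2%). A match is a description of letters and not a shown binding site.

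The 23 libraries held 243870 to 16601064 counts, and 9687 to 15608 genes had a count. Expected counts were scaled by the trimmed mean of M values (TMM) and are given as CPM, counts relative to the scaled library total. All 36 members passed the filter on low counts and were among the 12463 genes tested. A gene was called at an adjusted p under 0.05 in edgeR's quasi-likelihood test with Benjamini-Hochberg adjustment over all genes tested, and log2 fold changes are given ± SE. The share of counts on 5 genes at the ribosomal RNA locus differed between libraries, at 41.3% to 72.4% with Nothing in cDC1, 28.9% to 37.6% with Nothing in cDC2, 52.3% and 61% with PGPC in cDC2, and 7.74% to 39.6% elsewhere.

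The cell kinds were checked against their markers. Of 12 cDC1 markers, 9 (among them Clec9a, Batf3 and Irf8) were lower in each untreated cDC2 library than in each untreated cDC1 library. Of 10 cDC2 markers, Sirpa, Itgam and Zeb2 were higher in each untreated cDC2 library, while Irf4, Cd209a and Notch2 were lower. Mgl2, a defining cDC2 marker, reached at most 0.536 CPM in untreated cDC2, and Xcr1, a defining cDC1 marker, at most 0.38 CPM in untreated cDC1. The cDC1 and cDC2 names are therefore used as the libraries' labels. Of 10 monocyte or macrophage markers, 7 were higher in each untreated cDC2 library, with summed levels of 2270 to 3110 CPM against 813 to 1090 CPM. Of 9 plasmacytoid markers, 6 were higher in each untreated cDC1 library (604 to 758 CPM in sum against 56.1 to 120 CPM), and Siglech reached 142 CPM there. Of 9 granulocyte markers, 5 (Prtn3, S100a8, S100a9, Ltf and Ngp) were lower in each untreated cDC2 library, with sums of 0 to 1.61 CPM against 47 to 199 CPM. Of 6 mast cell or basophil markers, Gata2 and Kit were lower in each (sums of 7.48 to 12.4 CPM against 96.7 to 172 CPM). T or NK cell markers summed to less than 1 CPM in those 6 libraries. The part of these markers in the differences between the cell kinds was not tested, and in bulk libraries fewer cells of a type and less RNA per cell cannot be told apart.

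In sum over the 36 members, untreated cDC1 had the highest mean and each cDC2 group a lower mean than any cDC1 group. The summed level was 1581, 2351 and 1568 CPM in the 3 untreated cDC1 libraries (1833 ± 448, SD, n = 3) and 1018, 862.1 and 804.5 CPM in untreated cDC2 (894.9 ± 110, SD, n = 3), so those groups did not overlap. With LPS, cDC1 held 1121, 1094 and 1140 CPM (1118 ± 23.1), below each untreated cDC1 library. With LPS and PGPC, cDC1 held 1652, 1410 and 1255 CPM (1439 ± 200), above each cDC1 library with LPS alone and overlapping the untreated ones. PGPC alone gave 1768, 1617 and 1441 CPM in cDC1 (1609 ± 164), also overlapping.

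In cDC2 the libraries of one group differed by more than the groups did. The summed level was 533.5, 1246 and 796.4 CPM with LPS (858.6 ± 360), 461.9, 831.5 and 1101 CPM with LPS and PGPC (798.1 ± 321), and 1440 and 711.2 CPM with PGPC. All these ranges overlap that of untreated cDC2. The smallest exact two-sided permutation p for 3 libraries against 3 is above 0.05, so no test of these sums is given.

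**Figure D1:**
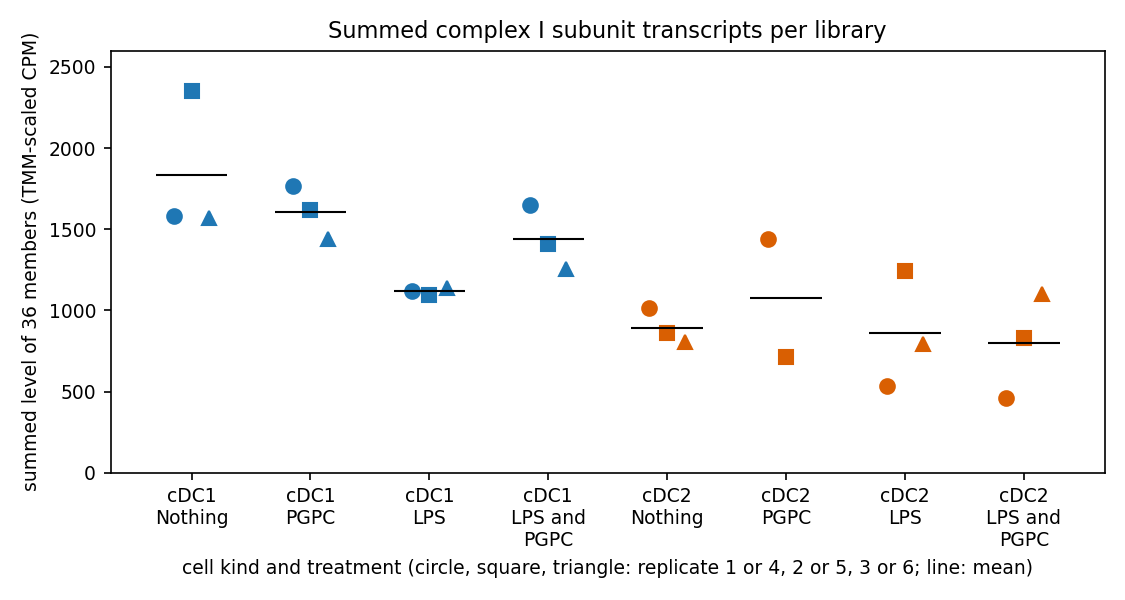
Summed level of the 36 members in each of the 23 libraries, in TMM-scaled CPM on an axis that starts at 0, by cell kind and treatment. Symbols are libraries and lines are group means. The 3 cDC1 libraries with LPS lie between 1094 and 1140 CPM, below all 3 untreated cDC1 libraries, and the cDC2 groups with a treatment spread widely.

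The unscaled share of counts gives another order for 1 library. The members took 0.0748%, 0.214% and 0.139% of all counts in untreated cDC1 and 0.113%, 0.0859% and 0.0882% in untreated cDC2, which overlap. Outside the 5 ribosomal RNA locus genes they took 0.271%, 0.366% and 0.266% in untreated cDC1 and 0.159%, 0.126% and 0.141% in untreated cDC2, which do not. On that last scale the cDC1 libraries with LPS held 0.154%, 0.177% and 0.182%, all below the untreated ones.

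Per kilobase of transcript, the members differed by more than an order of magnitude among themselves. In untreated cDC1 the mean level was 195 CPM per kb for Ndufa6, an accessory subunit that binds the mitochondrial acyl carrier protein, then 141 for Ndufb9; Ndufa2 had 91.8. The lowest were Ndufb3 at 12.4, Ndufb4 at 9.29 and Ndufb2 at 4.63 CPM per kb. Lengths are those of 1 GENCODE transcript a gene, and the 4371 bases taken for Ndufb2 lower its value. In untreated cDC2, Ndufb9 led at 59.7 CPM per kb and Ndufa6 was no longer among the top 5. Reads of Ndufb4 were split with a near-identical gene, Ndufb4c: none of its nonzero counts was whole (tolerance 1e-06), so its level is uncertain. Counts of Ndufb6 (60.9% not whole) and Ndufa13 (47.8%) were also split in many libraries.

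The comparison of untreated cDC2 with untreated cDC1 asked how the cell kinds differ at rest, and it held the most calls among the members. In cDC2, 5 of 36 members were lower and 0 were higher, where 6.14% of all genes tested were called lower and 10.2% in either direction. Those described here are Ndufa6, Ndufb10, Ndufb5 and Ndufs8. At an unadjusted p under 0.05 there were 13 members. The log2 fold change was below 0 for 35 of 36 members, with a median of -1.0 against -0.10 over all genes tested, of which 53% were below 0.

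Ndufa6 showed the largest difference. It stood at 141, 116 and 87.9 CPM in untreated cDC1 and at 23.3, 24.3 and 18.7 CPM in untreated cDC2, so every cDC2 library was far below every cDC1 library. The value of 18.7 CPM, from cDC2 replicate 6, rests on 5 counts. The log2 fold change was -2.34 ± 0.50 (edgeR adjusted p = 0.00343, n = 3 against 3). The gene lies at chr15:82350140-82354322 (GRCm38, minus strand, 3 exons) and overlaps no other annotated gene. Its call held in 11 of 12 alternatives and ended only when all 36 libraries were fitted together (adjusted p = 0.282).

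Of the ubiquinone-binding module, Ndufs8 was lower in cDC2. This core subunit, which carries iron-sulfur clusters, stood at 65.9, 91 and 63.9 CPM in untreated cDC1 and at 33.2, 34.3 and 29.9 CPM in cDC2 (-1.16 ± 0.34, edgeR adjusted p = 0.0303). The groups did not overlap, and cDC1 replicate 2 was the highest library. The value of 29.9 CPM, from cDC2 replicate 6, rests on 8 counts. Ndufs8 (chr19:3908863-3912774, minus strand, 7 exons) overlaps no other gene.

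Of the membrane arm, the accessory subunits Ndufb10 and Ndufb5 were lower in cDC2. Ndufb10 stood at 44.5, 85.4 and 53.9 CPM in untreated cDC1 and at 22, 21.2 and 15 CPM in cDC2 (-1.61 ± 0.48, edgeR adjusted p = 0.0309). Ndufb5 stood at 68.4, 72.8 and 55.4 CPM in cDC1 and at 24.1, 27.4 and 15 CPM in cDC2 (-1.49 ± 0.46, adjusted p = 0.0401). In both genes each cDC2 library was below each cDC1 library. The value of 15 CPM, from cDC2 replicate 6, rests on 4 counts in both. Ndufb10 lies at chr17:24722060-24724478 (minus strand, 4 exons). Ndufb5 (chr3:32736990-32751566, plus strand, 6 exons) overlaps Mrpl47, which had 0 to 16.4 CPM in the 23 libraries.

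**Figure D2:**
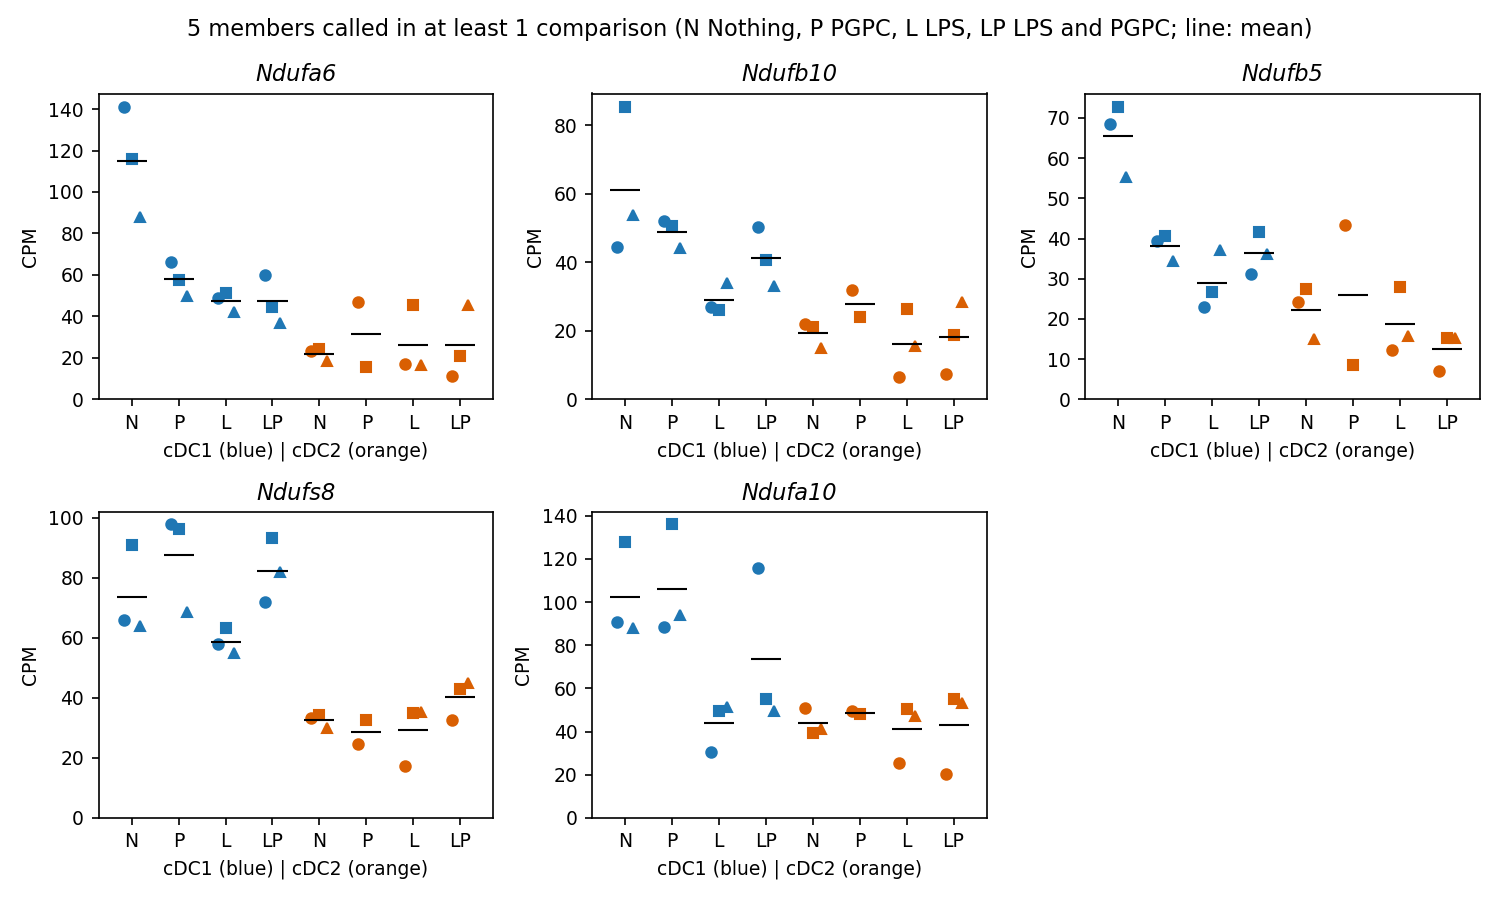
Level in TMM-scaled CPM (each axis starts at 0) of 5 members called in at least 1 comparison, by library and group; lines are group means. For Ndufa6 the 3 untreated cDC1 libraries lie at 87.9 to 141 CPM and the 3 untreated cDC2 libraries at 18.7 to 24.3 CPM.

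The other members leaned the same way without passing the test. In 21 of 36 members (58.3%) every untreated cDC2 library lay below every untreated cDC1 library, against 19.8% of all genes tested. Among these libraries cDC2 replicate 6, at 243870 counts, was the lowest of its group in 24 members (53.2% of all genes). By role, the median log2 fold change was -0.93 over the 10 members listed with the NADH-binding module, -1.04 over the 6 of the ubiquinone-binding module and -0.97 over the 19 of the membrane arm and others. Ndufb11, an X-linked membrane arm subunit, had the next largest difference (-1.54 ± 0.53, edgeR adjusted p = 0.0662). Ndufa4, the complex IV subunit, had -1.11 ± 0.54 (adjusted p = 0.201).

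Ndufs1 was the member above 0. This core subunit, which carries iron-sulfur clusters next to the NADH site, stood at 27.4, 50.1 and 26.8 CPM in untreated cDC1 and at 39.4, 33.6 and 52.4 CPM in untreated cDC2 (0.21 ± 0.38, edgeR adjusted p = 0.784). The groups overlapped. Its gene overlaps Eef1b2 on the other strand, so its counts are uncertain. Ndufc1, a small membrane arm subunit, was nearest to 0 among the rest, at -0.13 ± 0.64 (adjusted p = 0.937).

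These calls depend on single libraries and on the scaling. Without cDC1 replicate 2, in which 28 of 36 members had their highest untreated cDC1 level (36.4% of all genes), 1 member stayed called and the median was -0.72. Leaving out any 1 of the 3 cDC2 libraries also left 1 call, and leaving out cDC1 replicate 1 left 3. With the 5 ribosomal RNA locus genes taken out of the totals, an alternative added after seeing the data, only Ndufa6 was called (adjusted p = 0.00609) and the median was -0.86, against 0.00 over all genes.

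The genes of respiratory complexes III and IV and of ATP synthase that were called between the untreated cell kinds were all lower in cDC2. Over all genes tested, 6.14% were called lower and 10.2% in either direction. How far the calls of these related genes depend on single libraries or on the scaling was not examined. Of 9 complex III genes, 2 were lower in cDC2: Uqcrfs1, the Rieske iron-sulfur protein (132.1 CPM in cDC1 against 32.14 CPM in cDC2, -2.05 ± 0.44, edgeR adjusted p = 0.00371), and Uqcrc2, a core protein (-1.51 ± 0.39, adjusted p = 0.0144). Of 10 complex IV genes, Cox8a (-1.79 ± 0.50, adjusted p = 0.0226) and Cox4i1 (-1.39 ± 0.44, adjusted p = 0.0462) were lower. Of 15 ATP synthase genes, Atp5c1, the gamma subunit of the rotor (-1.35 ± 0.38, adjusted p = 0.0247), and Atp5pb, of the peripheral stalk (-1.36 ± 0.41, adjusted p = 0.0368), were lower. No gene of these 3 lists was called higher, and 0 of 4 complex II genes passed edgeR's test in either direction (1 had an unadjusted p under 0.05). Atp5g3 of ATP synthase (0.95, adjusted p = 0.122) and Sdhc of complex II (0.96, adjusted p = 0.35) had values above 0. The list medians were -1.04 for complex IV and -1.06 for ATP synthase, near the -1.0 of the complex I members. They were -0.71 for complex III and -0.61 for complex II.

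The genes that build complex I or regulate its transcription gave 2 calls, a share near that of all genes: 6.14% of all genes tested were called lower and 500 of 12463 higher. Of 15 assembly factors tested, 1 was lower in cDC2: Ndufaf7, a methyltransferase that acts during assembly (24.52 CPM in cDC1 against 3.517 CPM in cDC2, -2.42 ± 0.62, edgeR adjusted p = 0.0129). Of 11 regulators tested, 1 was higher in cDC2: Pprc1, a coactivator related to PGC-1 (74.34 CPM in cDC1 against 289.2 CPM in cDC2, 1.97 ± 0.46, adjusted p = 0.00673). All 15 assembly factors had values below 0, with a median of -0.85, while the regulators' median was -0.05. Of the 6 other complex I genes tested, which are Ndufab1 and mitochondrially encoded subunits, 0 passed edgeR's test and 0 had an unadjusted p under 0.05. All 6 had values below 0, with a median of -0.74.

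**Figure D3:**
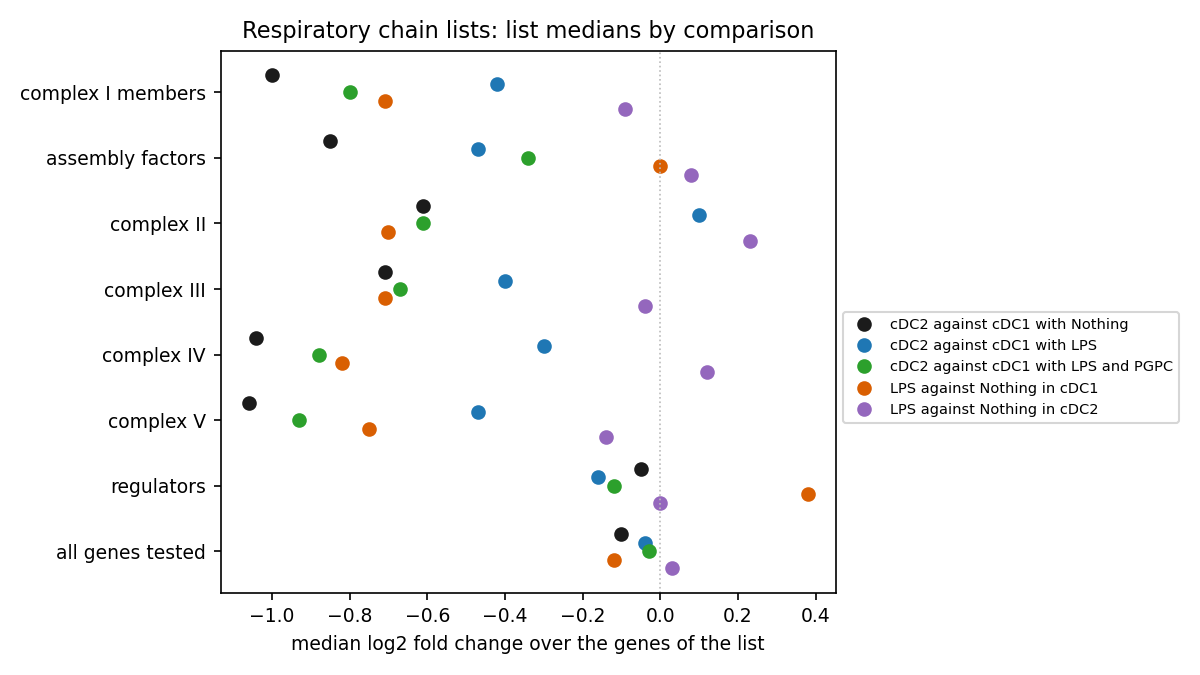
Median log2 fold change over the genes of each list in 5 comparisons. The list of Ndufab1 and mitochondrially encoded subunits is not shown. Points left of 0 are lists whose median is lower in the first-named group. For untreated cDC2 against cDC1 the complex I members lie at -1.0, complexes III, IV and V at -0.71, -1.04 and -1.06, the regulators at -0.05 and all genes tested at -0.10.

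With LPS and PGPC together, 2 of 36 members were lower in cDC2 than in cDC1 and 0 were higher, where 2.54% of all genes tested were called lower and 7.14% in either direction. Ndufb5 stood at 31.1, 41.7 and 36.2 CPM in cDC1 and at 7.14, 15.3 and 15.3 CPM in cDC2 (-1.54 ± 0.45, edgeR adjusted p = 0.0364). Each cDC2 library was below each cDC1 library. Leaving out cDC1 replicate 1, or cDC2 replicate 4 or 5, left 0 calls, and leaving out cDC1 replicate 2 or 3 left 1.

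All 36 members had a log2 fold change below 0 in that comparison, from -1.54 (Ndufb5) to -0.14 (Ndufv3), with a median of -0.80 against -0.03 over all genes. In 12 members (33.3%) the cDC2 libraries lay wholly below the cDC1 libraries, against 13% of all genes. Leaving out cDC2 replicate 4 moved the median to -0.46. Summed monocyte or macrophage markers were 1000 to 2820 CPM in cDC2 and 181 to 454 CPM in cDC1 here, with 7 of 10 higher in each cDC2 library, and their part was not tested. Of the related lists, Cox4i1 (-1.68 ± 0.44, edgeR adjusted p = 0.0204) and Atp5d, the delta subunit of ATP synthase (-1.30 ± 0.40, adjusted p = 0.0481), were lower in cDC2.

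With LPS alone, 0 of 36 members passed edgeR's test between the cell kinds, where 7.80% of all genes did. There were 2 members at an unadjusted p under 0.05 and 1 call with DESeq2. The median was -0.42 (all genes -0.04), from -1.38 for Ndufb2 to 0.53 for Ndufs4, and it was -0.11 without cDC2 replicate 4. In 4 members (11.1%) the cDC2 libraries were wholly below, against 13.5% of all genes.

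LPS against Nothing in cDC1 asked what the ligand alone changes. The 1 member called was Ndufa10, a membrane arm subunit related to nucleoside kinases, which was lower with LPS; 9.36% of all genes tested were called lower and 17.9% in either direction. It stood at 90.7, 128 and 88.1 CPM with Nothing and at 30.6, 49.6 and 51.5 CPM with LPS, with no overlap (-1.23 ± 0.41, edgeR adjusted p = 0.0405). The gene lies at chr1:92439010-92473860 (minus strand, 10 exons) and overlaps no other gene. The call held in 4 of 13 alternatives, and the log2 fold change stayed between -1.48 and -1.02. It was lost without any 1 of the 3 untreated libraries or without LPS replicate 1 or 2 (adjusted p between 0.0521 and 0.166).

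The share of members called in this comparison was below that of all genes, while the members' values leaned to lower levels. The log2 fold change was below 0 for 35 of 36, with a median of -0.71 (all genes -0.12), from -1.37 for Ndufb11 to 0.16 for Ndufs1. In 16 members (44.4%) each LPS library lay below each untreated library, against 20.2% of all genes. There were 9 members at an unadjusted p under 0.05, and DESeq2 called 6. Without untreated replicate 2 the median was -0.38, and with the 5 ribosomal RNA locus genes taken out it was -0.57 (all genes -0.02) with 0 calls. Summed plasmacytoid markers were 252 to 426 CPM with LPS and 604 to 758 CPM with Nothing, 5 of 9 of them lower in each LPS library. Of 10 monocyte or macrophage markers, 8 were lower in each LPS library (sums of 395 to 937 CPM against 813 to 1090 CPM). Adgre1 of that list was higher in each (265 to 714 CPM against 19.7 to 63.6 CPM). Of 9 granulocyte markers, 5 were lower in each (sums of 0 to 6.96 CPM against 47 to 199 CPM). Of 12 cDC1 markers, 5 were lower in each and Xcr1 was higher (sums of 515 to 699 CPM against 1300 to 1950 CPM). Of 10 cDC2 markers, Sirpa, Itgam and Zeb2 were higher in each LPS library, while Irf4, Cd209a and Clec10a were lower. The part of these markers was not tested.

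By role, the medians with LPS in cDC1 were -0.68 for the NADH-binding list, -0.81 for the ubiquinone-binding module and -0.54 for the membrane arm and others. Ndufa6 had -1.27 ± 0.46 (edgeR adjusted p = 0.0584), at 49, 51.4 and 42.1 CPM with LPS, all below its untreated libraries. Ndufv1, the subunit that binds NADH and flavin, had -0.15 ± 0.39 (adjusted p = 0.838). Of the related lists 0 genes passed the test here. Their medians were -0.70 for complex II, -0.71 for complex III, -0.82 for complex IV, -0.75 for ATP synthase, 0.00 for the assembly factors and 0.38 for the regulators. For the 6 other complex I genes tested (Ndufab1 and mitochondrially encoded subunits) the median was -1.27. All 6 had values below 0, and 0 had an unadjusted p under 0.05.

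**Figure D4:**
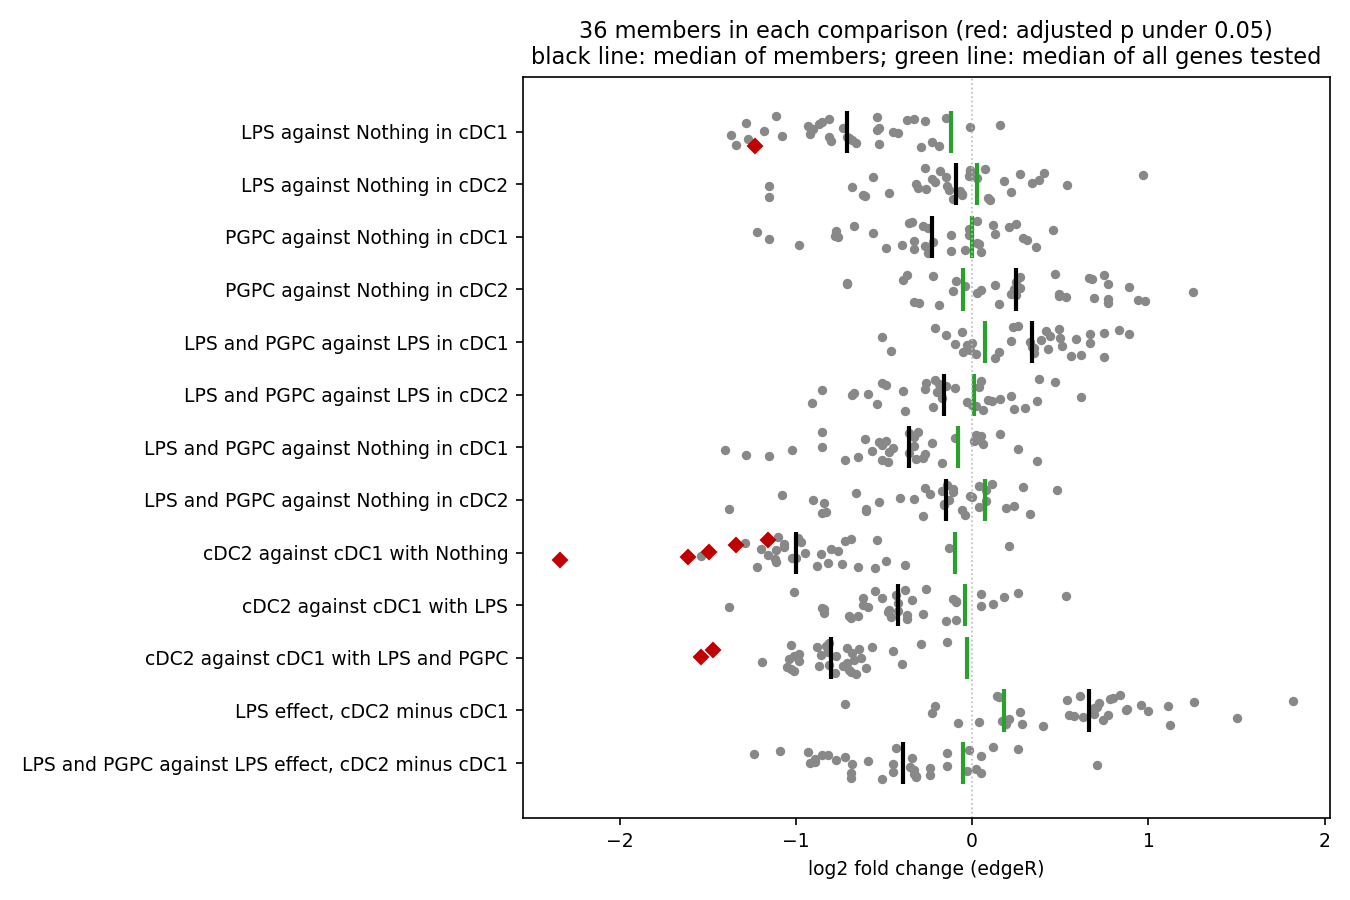
Log2 fold change of each of the 36 members (points) in the 13 comparisons, from edgeR; red diamonds are members called at an adjusted p under 0.05, black lines the members' medians and green lines the medians over all genes tested. The members' median is -1.0 for untreated cDC2 against cDC1 and -0.71 for LPS against Nothing in cDC1, and lies nearest to 0, at -0.09, for LPS against Nothing in cDC2.

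In cDC2, LPS against Nothing gave 0 member calls in edgeR and in DESeq2 and 0 at an unadjusted p under 0.05, where 8.52% of all genes were called. The median was -0.09 (all genes 0.03), from -1.15 for Ndufa12 to 0.97 for Ndufs4, an accessory subunit of the matrix arm, and it turned to 0.20 without LPS replicate 4. Ndufs4 stood at 14.2, 10.8 and 7.48 CPM with Nothing and at 8.19, 45.8 and 13.7 CPM with LPS, so 1 library carried its mean. The LPS effect in cDC2 minus that in cDC1, tested as an interaction, gave 0 member calls (1.33% of all genes, lowest member adjusted p = 0.324), with 1 member at an unadjusted p under 0.05 and 0 calls with DESeq2. Its median was 0.66 (all genes 0.18) with 32 of 36 members above 0. It was 0.17 without cDC2 LPS replicate 5 and 0.35 without untreated cDC1 replicate 2.

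PGPC added to LPS asked what the phospholipid changes in cells that also receive LPS. In cDC1, 0 members passed edgeR's test (1.93% of all genes did), 1 had an unadjusted p under 0.05 and DESeq2 called 0. The median was 0.34 (all genes 0.07), with the lowest value at -0.51 for Ndufc1 and 26 of 36 members above 0. In 6 members (16.7%) each library with both agents lay above each library with LPS alone, against 13.6% of all genes.

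In cDC2 the same comparison gave 0 member calls in edgeR (0.385% of all genes), 0 at an unadjusted p under 0.05 and 0 with DESeq2. The median was -0.16 (all genes 0.01), from -0.91 for Ndufa5 to 0.62 for Ndufb2, and it turned to 0.26 without LPS replicate 5 and to 0.19 without LPS_PGPC replicate 4. The difference between the cell kinds in this effect gave 0 member calls (0.00802% of all genes), 0 at an unadjusted p under 0.05 and 0 with DESeq2. Its median of -0.39 turned to 0.09 without cDC2 LPS replicate 5.

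Against Nothing, LPS and PGPC together gave 0 member calls in edgeR in either cell kind, where 11.9% of all genes were called in cDC1 and 7.62% in cDC2. In cDC1 the median was -0.36 (all genes -0.08), from -1.40 for Ndufb11 to 0.37 for Ndufa11; 2 members had an unadjusted p under 0.05 and DESeq2 called 2. Ndufb11 stood at 35.9, 48.6 and 55.4 CPM with Nothing and at 8.99, 25.4 and 19 CPM with both agents, without overlap; its gene overlaps Rbm10 on the other strand. In cDC2 the median was -0.15 (all genes 0.07), from -1.38 for Ndufa5 to 0.48 for Ndufs4, with 1 member at an unadjusted p under 0.05 and 0 calls with DESeq2, and it turned to 0.13 without LPS_PGPC replicate 4. Of the related lists in cDC2, Atp5g3, a membrane rotor subunit of ATP synthase (-1.69 ± 0.39, edgeR adjusted p = 0.0067), and Pprc1 (-1.51 ± 0.45, adjusted p = 0.0387) were lower.

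PGPC alone gave 0 member calls in edgeR and in DESeq2 in both cell kinds. Over all genes 2.08% were called in cDC1 and 0.0160% in cDC2. In cDC1 the median was -0.23 (all genes 0.00), from -1.22 for Ndufc1 to 0.46 for Ndufs1, with 1 member at an unadjusted p under 0.05, and it turned to 0.24 without untreated replicate 2. In 7 members (19.4%) each PGPC library of cDC1 lay below each untreated one, against 9.63% of all genes. In cDC2, with 2 PGPC libraries, the median was 0.25 (all genes -0.05), from -0.71 for Ndufc2 to 1.25 for Ndufb2, and it turned to -0.51 without PGPC replicate 4. The comparisons against Nothing in one cell kind share their untreated libraries and are not independent of each other.

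Within the cDC2 groups with a treatment, most members were high or low together from library to library. This was not particular to complex I: complexes III and IV and ATP synthase, each summed, had the members' library order there. Complex IV summed to 273.4, 724.1 and 437.3 CPM with LPS and to 169.3, 390.4 and 609.7 CPM with LPS and PGPC. Complex II did not share the order with LPS (378.9, 369.6 and 289.6 CPM). With LPS and PGPC, replicate 4 had the lowest level of its group in 35 of 36 members (34.5% of all genes), with a median log2 difference of -1.40 from the mean of the other libraries of the group (all genes 0.10). With LPS, replicate 4 was lowest in 29 members (33.9% of all genes) and replicate 5 highest in 32 (33.1%). With PGPC, replicate 5 was the lower of 2 in 32 members (51.7% of all genes). These libraries held 969959 to 8283434 counts, and the deepest of them, LPS_PGPC replicate 4, had the lowest members. Summed monocyte or macrophage markers were 3940 CPM in LPS replicate 4 against 1240 and 1450 CPM in the other LPS libraries, and 2820 CPM in LPS_PGPC replicate 4 against 1360 and 1000 CPM; their part was not tested.

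Ndufv1 went the other way in the replicate 4 libraries with LPS. It was highest in replicate 4 both with LPS (60.4, 51.2 and 27.4 CPM) and with LPS and PGPC (70.2, 41.5 and 33.3 CPM). With PGPC it was lower in replicate 5, as most members were (82.2 and 75.8 CPM). Among cDC1 libraries, LPS_PGPC replicate 1 had the highest Ndufv1 of its group (89.9 CPM against 48.7 and 38.7) and the lowest Ndufb3 (2.18 CPM against 19.3 and 13.4). The mitochondrially encoded Nd transcripts, summed, had the same library order as the nuclear members in each cDC2 group: 42.5, 328.1 and 208.4 CPM with LPS, 33.15, 140.5 and 244.6 CPM with LPS and PGPC, 162.6, 142.6 and 138.4 CPM with Nothing, and 140.3 and 136 CPM with PGPC. In cDC1 the orders differed. In untreated cDC1 the Nd sums stood at 70.14, 124.1 and 550.6 CPM, with the highest in replicate 3, while the nuclear members were highest in replicate 2.

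**Figure D5:**
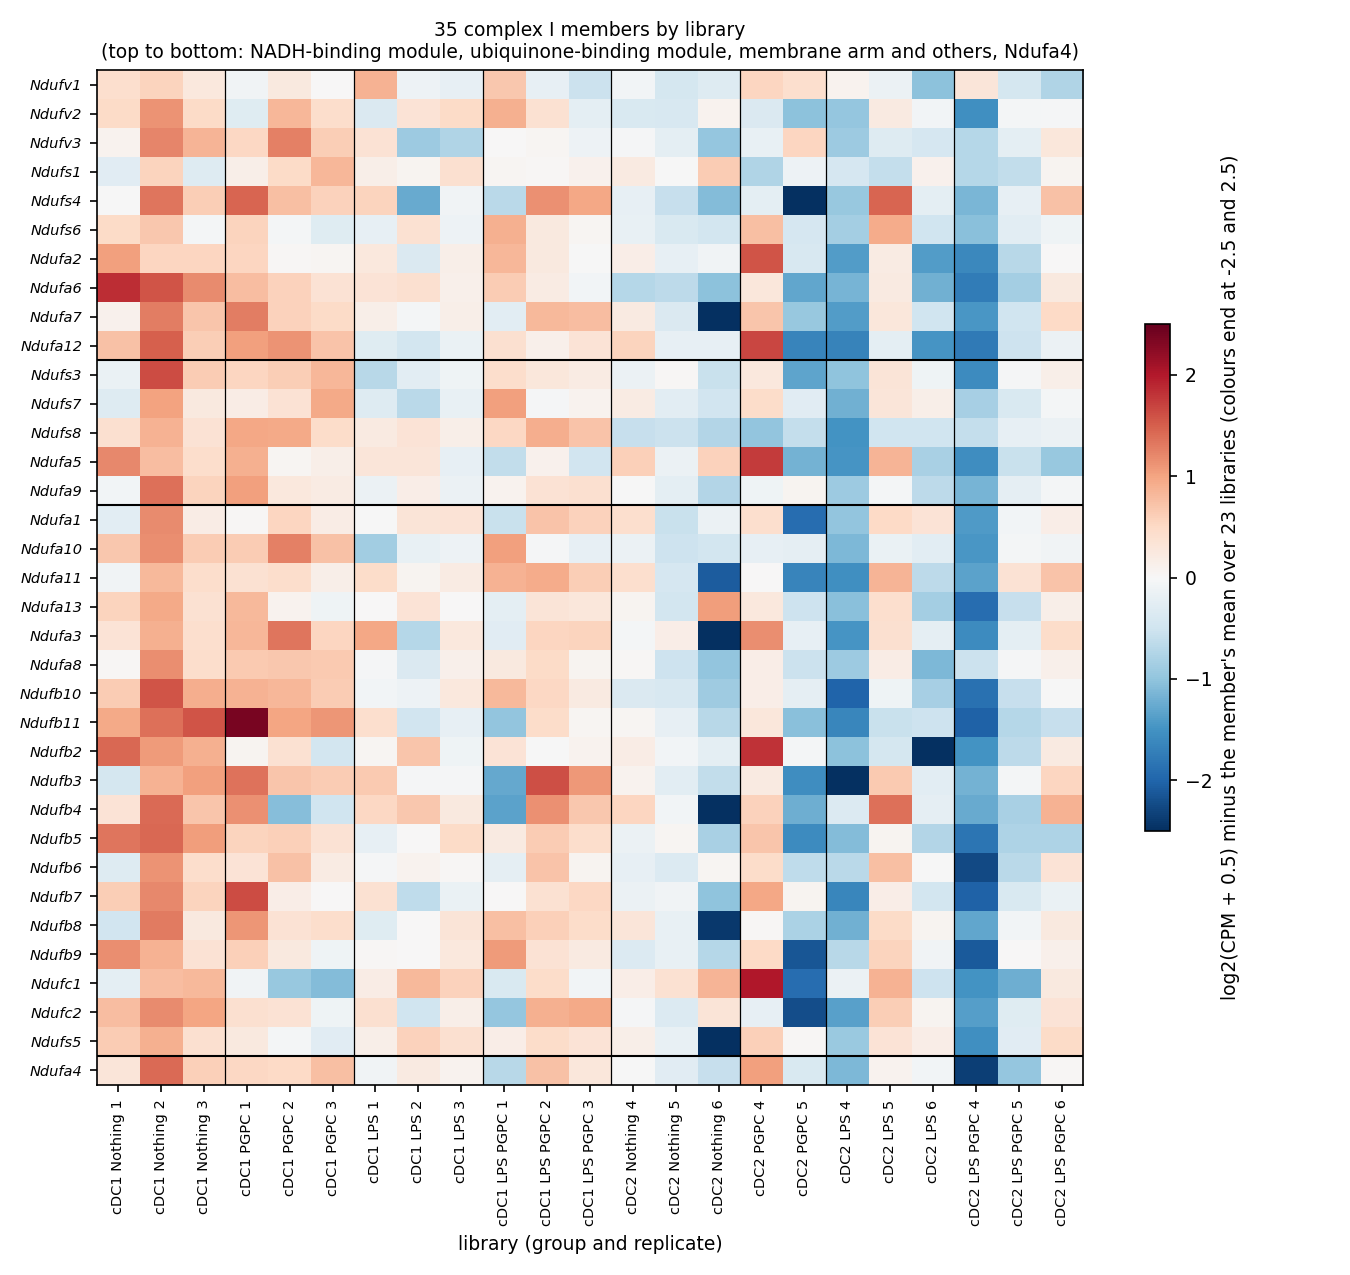
For 35 members, log2(CPM + 0.5) minus the member's mean over the 23 libraries (red higher, blue lower; colours end at -2.5 and 2.5), with members ordered by role and libraries by group. In some libraries most members share a colour: untreated cDC1 replicate 2 is red in most members, and LPS_PGPC replicate 4 of cDC2 is blue in most but not in Ndufv1.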

How the data were processed

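RNA of an amount set to about 2000 cells a reaction was made into cDNA by a Smart-Seq2 protocol and sequenced as paired-end Nextera XT libraries, per the labels' protocols; neither step marks strand. The authors deposited RSEM expected counts per gene symbol; RSEM (version not given in the sources used here), bcl2fastq 2.2 and the build GRCm38 are named in the submitters' processing notes. The expected counts were rounded (21% of nonzero values were not whole). The 23 libraries were fitted with 8 group means in edgeR 4.0.16 (R 4.3.3, limma 3.58.1) after TMM scaling and filterByExpr (minimum count 10, total 15), with no covariate. Depth was 243870 to 16601064 counts a library, and p-values measure the spread between libraries. Values of 1 member are not reported here by name. The 12 alum libraries and cDC2 PGPC replicate 6 were left out by the rule of the member set.

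The members, related lists and markers were chosen with earlier results of these data known. Named genes are the called members (up to 6 a comparison) and the lowest and highest member of each comparison, plus up to 4 genes a related list with the smallest adjusted p; Ndufb3, Ndufv1, Ndufa4 and the neighbours of called genes were named after their values were seen, and Ppargc1b, called with LPS and PGPC in cDC1 where it had no count, is given no fold. Coordinates are from GENCODE M21. The alternatives tried were other size factors, no filter, DESeq2 1.42.0, all 36 libraries, totals without 4 ribosomal RNA locus genes, a replicate block, and leaving out each library. Of 23 same-numbered pairs, 7 had correlated deviations over 0.1 (r from -0.046 to 0.544); only for LPS_PGPC against LPS in cDC2 did all 3 pairs pass, and with the replicate block that comparison also called 0 members. Data were also simulated in which 200 of 12463 genes, drawn from all genes tested, were changed. Fewer genes were thus changed than the 2235 called for LPS in cDC1, which makes the adjusted threshold stricter. The recovery rates are therefore not those of the reported comparisons or of the members. In these simulated data, the edgeR test for LPS against Nothing recovered 2% of 2-fold changes in cDC1 and 0% in cDC2. It recovered 24% and 18% of 4-fold changes, and 82% and 70% of 16-fold changes.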

Additional observations from a re-analysis of the deposited data

Results flagged for a closer look

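Of the 13 libraries outside the comparisons, 5 held a larger share of counts on the members than any untreated library of their cell kind, and 8 did not, with shares down to 0%. The highest untreated share was 0.214% in cDC1. The share was 1.42% in cDC1 with alum replicate 2, of which Ndufv1 alone gave 2333 counts, 0.268% in cDC1 with alum replicate 3 (355 counts of Ndufb7) and 0.254% in cDC1 with LPS and alum replicate 1 (1638 counts of Ndufv1). For cDC2 the highest untreated share was 0.113%. It was 0.135% with alum replicate 5, where Ndufb6 gave 986 counts, and 0.342% in PGPC replicate 6, which held 3805 counts in all and at most 4 of any member. In these 5 libraries 3 to 8 of the 36 members had a count.

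Called members and the summed level were searched for libraries that all moved in opposite directions in the cell kinds. The opposite directions of Ndufb10 and Ndufb5 are thus the rule that picked them and not a test. For Ndufb10 with PGPC, all cDC1 libraries lay below the mean of their untreated libraries and both cDC2 libraries above theirs. The mean log2(CPM + 0.5) difference was -0.27 in cDC1, where the libraries overlapped, and 0.52 in cDC2. This difference between the cell kinds was not tested. For Ndufb5, PGPC added to LPS gave higher values in all cDC1 libraries relative to the mean with LPS alone. In cDC2 it gave lower values in all libraries. The mean difference was 0.34 in cDC1 and -0.54 in cDC2, and the libraries overlapped in both cell kinds. The interaction for Ndufb5 was -0.92 ± 0.64 (edgeR adjusted p = 0.752).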

How the results depend on the processing

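Counts of called members moved by more than 1.5 times as follows. For LPS against Nothing in cDC1 (1 call), no filter on low counts, all 36 libraries, the replicate block and totals without 5 ribosomal RNA locus genes each gave 0, and DESeq2 gave 6. For untreated cDC2 against cDC1 (5 calls), no filter gave 2, all 36 libraries 0 and totals without the 5 genes 1. For cDC2 against cDC1 with LPS and PGPC (2 calls), all 36 libraries gave 0. DESeq2 gave 2 for LPS and PGPC against Nothing in cDC1 and 1 for cDC2 against cDC1 with LPS, in place of 0. Leaving out 1 library at a time gave 0 to 2 calls for LPS in cDC1, 1 to 5 for the untreated cell kinds, 0 to 2 for the cell kinds with LPS and PGPC, and 0 for the other 10 comparisons. The replicate block changed no other member call; the numbers were nested in the cell kind, so no block was fitted between the cell kinds. The cause of these moves was not tested.

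Of 177 medians recomputed under the alternatives, 170 kept their direction. The 7 that turned did so without 1 library. With 1 library left out, the median ran from -0.34 to 0.24 for PGPC in cDC1, from -0.43 to 0.20 for LPS in cDC2, from -0.51 to 0.58 for PGPC in cDC2, from -0.49 to 0.26 (also 0.19) for LPS_PGPC against LPS in cDC2, from -0.83 to 0.09 for its difference between cell kinds, and from -0.55 to 0.13 for LPS_PGPC against Nothing in cDC2. Over all genes, the alternatives that kept every library called 596 to 2789 (2235 in the comparison as reported) for LPS in cDC1, 232 to 1313 (1062) for LPS in cDC2, 43 to 637 (259) and 0 to 33 (2) for PGPC in cDC1 and cDC2, 8 to 716 (241) and 2 to 190 (48) for LPS_PGPC against LPS, 362 to 1991 (1480) and 155 to 1327 (950) for LPS_PGPC against Nothing, 118 to 1770 (1265), 300 to 1420 (972) and 143 to 1306 (890) between the cell kinds with Nothing, LPS and LPS_PGPC, and 6 to 428 (166) and 0 to 97 (1) for the interactions. The lowest counts came with all 36 libraries. Between the untreated cell kinds 500 of the called genes were higher in cDC2, and 611 of 1216 without the 5 genes.

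With 2 or 3 libraries a group, a member that misses the threshold is not shown to be equal between groups. Untreated cDC2 replicate 6, at 243870 counts, had 215 counts over the members and none for 2 of them.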
